A study of Mus musculus with 8 samples.

Results

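The genes described here encode 10 sensors and adaptors of nucleic acid sensing: Ddx58, Ifih1, Dhx58, Tlr3, Zbp1, Mavs, Tmem173, Traf6, Trex1 and Samhd1. They were taken by name from a table of 47434 genes, of which 15840 had enough counts to be tested. Of the 10, 9 were tested, and Zbp1 was too weakly expressed. The libraries are poly-A RNA of Hepa 1-6, an established mouse hepatoma cell line. There were 4 libraries of cells labelled G9a knockout and 4 of wild-type cells of the same line. G9a is the histone methyltransferase encoded by Ehmt2, which places repressive methyl marks on lysine 9 of histone H3. No treatment, time point, clone or guide is named in the labels, which do not say whether the knockout cells are 1 clone. The labels do not tie libraries to separate cultures either, and p-values therefore measure the spread between these libraries, which may be technical.

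Cells detect foreign or misplaced nucleic acid with receptors that differ in ligand and place. In the cytosol, RIG-I (Ddx58) and MDA5 (Ifih1) bind double-stranded RNA and signal through MAVS on mitochondria, while LGP2 (Dhx58) modulates both. STING (Tmem173) relays signals from the cytosolic DNA sensor cGAS, TLR3 reads double-stranded RNA in endosomes, and ZBP1 binds nucleic acid in the Z conformation. TRAF6 passes Toll-like receptor signals to NF-kB, and TREX1 and SAMHD1 limit the supply of ligand by degrading DNA and deoxynucleotides. In hepatocytes and hepatoma cells the RNA receptors are known as the entry to the interferon response against viruses.

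Totals lay between 58256100 and 75025236 counts per library. The knockout was checked first. Ehmt2 (chromosome 17) stood at 116.7, 116.7, 119.8 and 118.8 CPM in the knockout libraries, against 345.4, 307.1, 297.6 and 306.6 CPM in wild-type cells (log2 fold change -1.41 ± 0.05, SE; edgeR, adjusted p = 3.82e-10). CPM are estimated counts per library size, with TMM normalization. Hepatocyte markers were partly absent: of 13, Alb, Ttr, Serpina1a, Fgb and Hnf4a had 0 counts in all 8 libraries, which allows up to 0.04 to 0.0515 CPM per library, while the keratin genes Krt8 and Krt18 were expressed in both genotypes. Among the macrophage and dendritic cell markers, which could bring in sensors from another cell type, Adgre1, Itgam and Clec4f were at 0 in all libraries. The summed level of the 10 markers was 17.3 to 19.9 CPM in the knockout and 21.2 to 24.1 CPM in the wild type. Summed markers of T, NK and B cells were at 1.52 to 2.43 CPM in the knockout and 1.51 to 2.20 CPM in the wild type, with 6 of 9 at 0 throughout. Endothelial markers summed to 4.79 to 6.41 and 2.45 to 4.25 CPM, and 1 of 4 tested rose. Fibroblast markers summed to 430.8 to 463.3 CPM in the knockout and 109.3 to 119.6 CPM in the wild type; 4 of 6 tested rose, and the collagen gene Col3a1 made up nearly all of the sum. The summed hepatocyte markers were at 1334 to 1494 and 1173 to 1259 CPM, and 2 of 5 tested rose and 1 fell. The pan-leukocyte gene Ptprc was at 1.08 ± 0.077 against 0.44 ± 0.046 CPM (SD, n = 4 each; edgeR, adjusted p = 0.000984). It was the only riser among the 5 tested macrophage and dendritic cell markers, of which Cd14 (-0.52, adjusted p = 0.00202) and Flt3 (-1.02, adjusted p = 0.011) fell. The part of such genes in the results below was not tested, and in bulk RNA fewer cells of a type and less RNA per cell cannot be told apart.

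Of the 9 tested genes, 3 rose in the knockout (Ddx58, Ifih1 and Tlr3), 4 fell (Mavs, Tmem173, Samhd1 and Traf6) and 2 did not pass (Dhx58 and Trex1). These verbs stand for an adjusted p under 0.05 in edgeR's quasi-likelihood test, with Benjamini-Hochberg adjustment over all 15840 genes. That threshold was passed by 47.2% of all tested genes, 23.6% higher and 23.6% lower, so a call is common here. The 3 genes that rose are receptors of double-stranded RNA. Among the 4 that fell, Mavs, Tmem173 and Traf6 encode adaptors and Samhd1 an enzyme, and each of their log2 differences was smaller in size than those of the 3 receptors. Groups did not overlap in 7 of the 9 genes, against 43.9% of all genes tested. The median log2 fold change (knockout minus wild type) was 0.35 over the 9 genes and 0.0037 over all genes. The first of these is the value of Dhx58, which did not pass, so it does not show a shift of the 9 genes together.

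**Figure D1:**
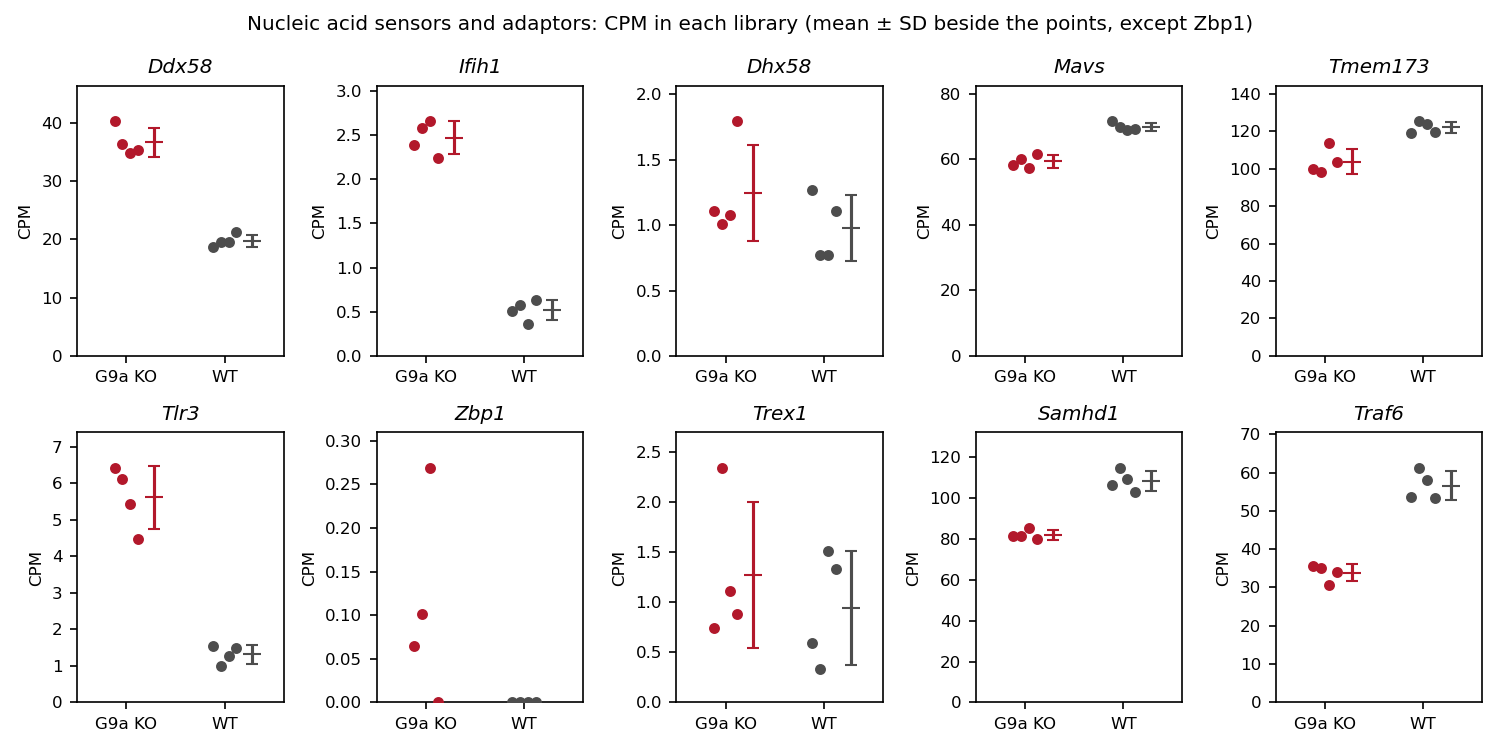
TMM-normalized CPM (y axis, from 0) of the 10 genes in each of the 4 G9a KO libraries (red) and 4 WT libraries (grey), with the mean ± SD beside the points except for Zbp1. Ddx58, Ifih1 and Tlr3 lie higher in all knockout libraries, and Mavs, Tmem173, Samhd1 and Traf6 lower, whereas the points of Dhx58 and Trex1 intermix.

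The windows around the start sites of the 3 genes that rose are shown because receptors of this kind are often under interferon control. They are the RefSeq promoter windows of GRCm38.p6, 250 bases before to 50 after the start, printed 5′ to 3′ on the strand of the gene. Capitals mark matches to the core of the interferon-stimulated response element, GAAANNGAAA, searched on both strands with overlaps counted. The Tlr3 window follows the RefSeq start, which lies inside the gene as GENCODE draws it. The windows are Ddx58 at chr4:40239776-40240075 (minus strand), Ifih1 at chr2:62646206-62646505 (minus strand) and Tlr3 at chr8:45410331-45410630 (minus strand).
Ddx58: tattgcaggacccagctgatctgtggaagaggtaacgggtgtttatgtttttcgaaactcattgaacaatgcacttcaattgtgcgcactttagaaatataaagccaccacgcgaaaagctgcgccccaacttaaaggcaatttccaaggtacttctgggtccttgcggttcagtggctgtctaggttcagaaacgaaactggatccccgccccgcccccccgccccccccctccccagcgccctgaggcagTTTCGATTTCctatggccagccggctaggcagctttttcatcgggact
Ifih1: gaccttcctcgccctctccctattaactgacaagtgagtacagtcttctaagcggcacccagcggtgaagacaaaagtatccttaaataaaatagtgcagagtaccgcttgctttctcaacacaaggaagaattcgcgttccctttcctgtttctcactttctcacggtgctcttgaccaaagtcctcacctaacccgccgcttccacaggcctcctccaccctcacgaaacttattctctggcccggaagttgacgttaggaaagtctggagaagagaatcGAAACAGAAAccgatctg
Tlr3: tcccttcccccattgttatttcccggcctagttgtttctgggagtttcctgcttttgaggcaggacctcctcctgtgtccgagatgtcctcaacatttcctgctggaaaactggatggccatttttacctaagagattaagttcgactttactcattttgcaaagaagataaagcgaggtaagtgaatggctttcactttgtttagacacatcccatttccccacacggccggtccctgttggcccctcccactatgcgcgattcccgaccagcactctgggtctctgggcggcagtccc

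The core matched once in Ddx58, beginning 3 bases after the start on the reverse strand of the window, and once in Ifih1, beginning 33 bases after the start on the forward strand. It did not match in the window of Tlr3, nor in those of Mavs, Samhd1, Traf6 and Trex1. Of all 32851 promoter windows of 300 bases in the table, 3.44% held a match. The interferon-gamma motif GAS (TTCNNNGAA, the same on both strands) matched in Samhd1 among the 7 genes with a window, and in 8.3% of all windows. CG dinucleotides numbered 29 in Samhd1, 19 in Mavs and 19 in Traf6, against 15 in Ddx58, 14 in Ifih1 and 10 in Tlr3. The 2 windows of Trex1, which did not pass, held 7 and 5, and the median over all windows was 7 (quartiles 3 and 20). A match of letters is not evidence of binding.

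Ddx58 (ENSMUSG00000040296, chromosome 4, 40203773 to 40239828, GRCm38), which encodes RIG-I, the receptor of short RNA with a triphosphate end, was the most abundant of the 3 per length in every library. It reached 40.2, 36.3, 34.8 and 35.3 CPM in the knockout libraries, against 18.7, 19.5, 19.5 and 21.2 CPM in wild-type cells. The lowest knockout library was thus well above the highest wild-type library. The mean was 36.7 ± 2.48 against 19.7 ± 1.05 CPM (SD, n = 4 each), a log2 fold change of 0.90 ± 0.07 (SE; edgeR, adjusted p = 1.89e-07).

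Ifih1 (ENSMUSG00000026896, chromosome 2, 62595798 to 62646255) encodes MDA5, the receptor of long double-stranded RNA. It stood at 2.39, 2.59, 2.66 and 2.24 CPM in the knockout, against 0.51, 0.58, 0.36 and 0.63 CPM in the wild type. In counts these levels are 158 to 184 per knockout library and 25 to 40 per wild-type library, so the gene stayed sparse while the groups were far apart. Its mean was 4.75 times that of the wild type, with a log2 fold change of 2.25 ± 0.22 (SE, n = 4 each; edgeR, adjusted p = 2.69e-06). This was the largest difference among the 9 tested genes.

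Tlr3 (ENSMUSG00000031639, chromosome 8, 45395665 to 45411080), the endosomal receptor that signals through the adaptor TRIF, moved by a like amount. Its levels were 6.42, 6.11, 5.43 and 4.47 CPM in the knockout, against 1.53, 0.98, 1.26 and 1.48 CPM in the wild type. All knockout libraries were above all wild-type libraries, and the mean was 4.27 times as high. The log2 fold change was 2.10 ± 0.18 (SE, n = 4 each; edgeR, adjusted p = 6.23e-07).

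Dhx58 (ENSMUSG00000017830, chromosome 11) encodes LGP2, a relative of RIG-I and MDA5 that lacks their signalling domains. It did not follow them past the threshold. It was at 1.11, 1.01, 1.08 and 1.79 CPM in the knockout, against 1.27, 0.77, 0.77 and 1.11 CPM in the wild type. The groups overlapped, and 1 knockout library stood above the rest. The log2 fold change was 0.35 with a 95% interval of -0.25 to 0.95 (edgeR, adjusted p = 0.333), and 0.12 without knockout replicate 4. The interval lies below the estimates for Ifih1 and Tlr3 and takes in that for Ddx58, so it does not show that Dhx58 was alike in both genotypes. The antisense gene Dhx58os overlaps it, and without known strand use their reads cannot be told apart.

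Zbp1 (ENSMUSG00000027514, chromosome 2), the Z-nucleic acid receptor that can trigger necroptosis, was detected in knockout libraries only. It had 5, 7, 16 and 0 counts there, 28 in all, against 0 counts in each wild-type library. The pooled knockout level was only 0.104 CPM, which is 9.24 times a floor of 3 counts over the wild-type group. That ratio leaves out the spread of the knockout counts and is not a lower bound. Knockout replicate 3 held 16 of the counts, and without it the ratio was 5.05. With no filter on low counts it was called by edgeR (adjusted p = 0.0451), but with 1 knockout library at 0 the groups touched. The counts were spread over 3 annotated transcripts, and 1 of them, a retained intron form, held all 7 counts of knockout replicate 2.

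The adaptor genes shifted less than the 3 receptors. Mavs (ENSMUSG00000037523, chromosome 2, 131234063 to 131248025), the mitochondrial hub of RIG-I and MDA5, was at 58.3, 60.2, 57.3 and 61.8 CPM in the knockout, against 71.6, 69.9, 68.8 and 69.3 CPM in the wild type. The ranges were narrow and separate, with a log2 fold change of -0.24 ± 0.05 (SE, n = 4 each; edgeR, adjusted p = 0.000878). Tmem173 (ENSMUSG00000024349, chromosome 18), which encodes STING, was at 99.9, 98.2, 113.4 and 103.4 CPM in the knockout, against 118.9, 125.3, 124.0 and 119.7 CPM in the wild type. Its log2 fold change was likewise small, at -0.23 ± 0.05 (adjusted p = 0.00224).

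Traf6 (ENSMUSG00000027164, chromosome 2, 101678429 to 101701669), the ubiquitin ligase of Toll-like and interleukin-1 receptor signalling, fell most. It had 35.7, 35.0, 30.7 and 33.9 CPM in the knockout, against 53.5, 61.3, 58.2 and 53.5 CPM in the wild type. Each knockout library was far below each wild-type library, and the log2 fold change was -0.74 ± 0.07 (SE, n = 4 each; edgeR, adjusted p = 8.37e-07).

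Samhd1 (ENSMUSG00000027639, chromosome 2, 157097533 to 157135265), the deoxynucleotide hydrolase, was at 81.4, 81.2, 85.2 and 79.8 CPM in the knockout, against 106.5, 114.8, 109.2 and 103.1 CPM in the wild type. The groups were apart, and the log2 fold change was -0.40 ± 0.05 (SE, n = 4 each; edgeR, adjusted p = 1.33e-05). Trex1 (ENSMUSG00000049734, chromosome 9), the main cytosolic DNA exonuclease, was at 0.74, 2.34, 1.11 and 0.88 CPM in the knockout, against 0.59, 0.33, 1.51 and 1.33 CPM in the wild type. Its groups overlapped widely, so no difference was detectable (log2 fold change 0.43, 95% interval -0.58 to 1.44; adjusted p = 0.49). Trex1 lies wholly inside Atrip on the same strand, and Atrip, at 27.7 ± 1.01 against 29.6 ± 1.41 CPM, had far more counts, so the split of reads between them is uncertain.

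Of the 10 genes, 5 lie on chromosome 2: Ifih1, Traf6, Mavs, Samhd1 and Zbp1. Around each of them most genes were lower in the knockout. Taking 25 genes on each side whose mean reached 5 CPM, the median log2 fold change was -0.53 around Ifih1, -0.53 around Traf6, -0.53 around Mavs, -0.63 around Samhd1 and -0.58 around Zbp1. Of these 50, 43 fell around Ifih1, 36 around Traf6, 42 around Mavs, 42 around Samhd1 and 43 around Zbp1, against 23.6% of all genes. The 5 genes elsewhere had neighbour medians between -0.10 and -0.01. The part of gene dosage in this shared shift was not tested.

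**Figure D2:**
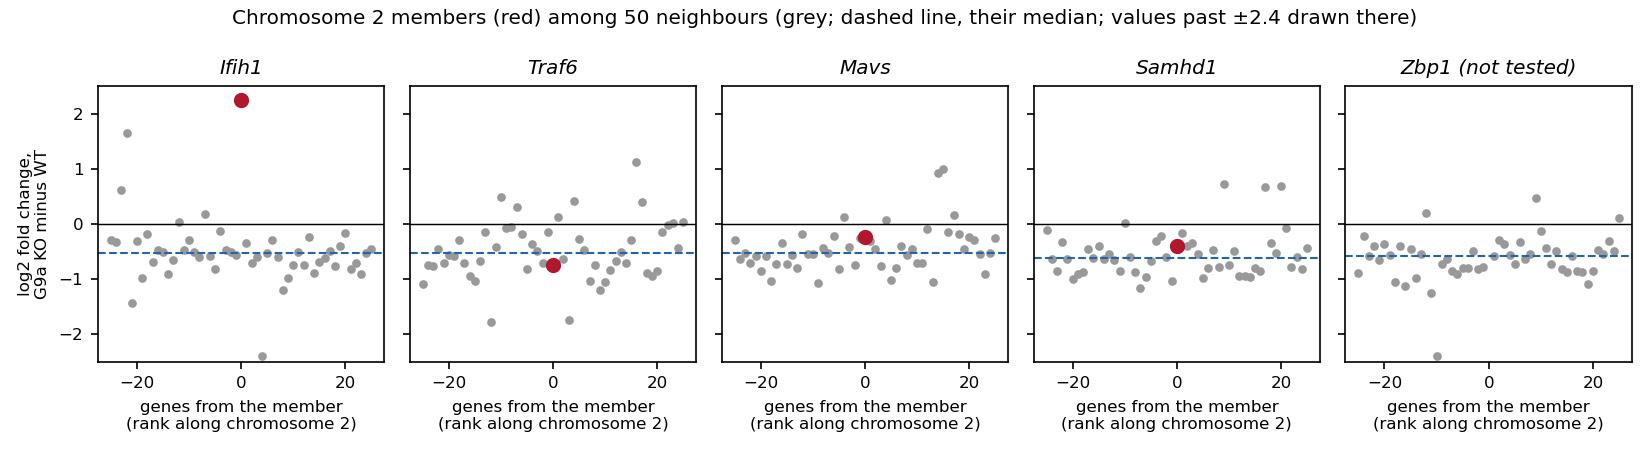
Log2 fold change, G9a KO minus WT (y axis), of the 50 genes nearest to each chromosome 2 gene, ordered by rank along the chromosome (x axis, 0 is the gene itself, in red). Most neighbours lie below 0, with dashed medians between -0.53 and -0.63; Ifih1 stands above each of its neighbours, while Traf6 lies below and Mavs and Samhd1 above the median of theirs.

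When the neighbour median was taken out in the fit, as an offset for the knockout libraries, 7 of the 9 genes were again called, but 5 as higher and 2 as lower (edgeR; 24.8% and 18.3% of all genes under this setting). Mavs turned to 0.30 ± 0.05 (adjusted p = 0.000171) and Samhd1 to 0.22 ± 0.05 (adjusted p = 0.00217): both were lower in the knockout, yet by less than the median of the genes around them. Traf6 kept a smaller difference of -0.21 ± 0.06 (adjusted p = 0.0182), and Ifih1 a larger one of 2.77 ± 0.23 (adjusted p = 6.12e-07). The offset was fixed, so these SE and p-values leave out the spread among the neighbours. As measured, Samhd1 (-0.4045) and Traf6 (-0.7425) lay between the quartiles of their neighbours (-0.848 and -0.400, -0.806 and -0.157). Mavs (-0.2352) lay above the upper quartile of its own (-0.266). Off chromosome 2, Ddx58 (1.00 ± 0.07) and Tlr3 (2.10 ± 0.18) moved little. The small difference of Tmem173 shrank from -0.23 to -0.16 ± 0.05 and kept its call (edgeR, adjusted p = 0.0248, from 0.00224).

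**Figure D3:**
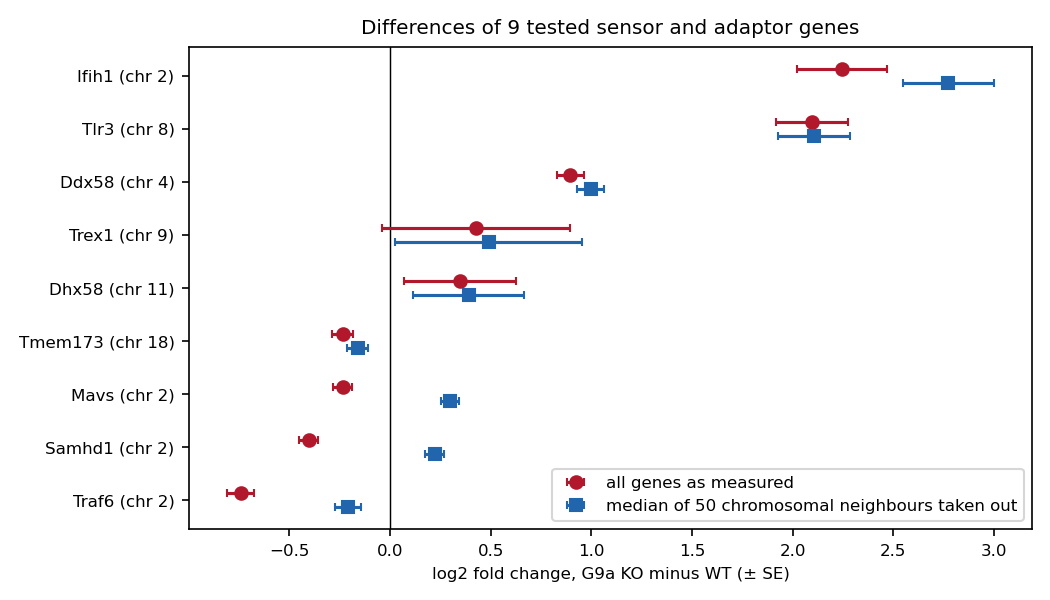
Log2 fold change, G9a KO minus WT, ± SE (x axis) of the 9 tested genes, as measured (red circles) and with the median of the 50 chromosomal neighbours taken out (blue squares). Mavs and Samhd1 lie on opposite sides of 0 in the 2 settings, while Ifih1, Tlr3 and Ddx58 are higher in the knockout in both.

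Of the 10 nearest tested genes beside the chromosome 2 genes, 7 fell, against 23.6% of all genes tested. Next to Ifih1, the proteasome gene Psmd14 fell by 0.57 on the log2 scale (edgeR, adjusted p = 1.05e-06), and Gm13577 was at 3.17 ± 0.50 against 2.58 ± 0.44 CPM (not passed). Beside Mavs, both Ap5s1 (-0.26) and Pank2 (-0.32) fell by about as much as Mavs did. Beside Samhd1, Soga1 fell by 1.04 and Rbl1 by 0.17. Around Traf6, neither B230118H07Rik (-0.16) nor Prr5l (0.12) passed, and Traf6 had the more negative value. Both genes beside Zbp1, Rbm38 (-0.78) and Pmepa1 (-0.58), fell. Next to Tlr3, Fam149a (0.34) and Ufsp2 (0.25) rose, each by far less than Tlr3. Ddx58 rose between Aco1 (-0.40) and Topors (-0.21), which both fell, and Tmem173 fell beside Ecscr, which rose by 1.63, and Ube2d2a, which did not pass. Neither neighbour of Trex1 (Shisa5 and Tma7) passed, and of those of Dhx58 Nkiras2 fell by 0.38 and Kat2a did not pass.

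Levels were compared between genes per length, as TPM computed from the estimated counts and the annotated transcript lengths. STING mRNA was the most abundant in all 8 libraries, at 91.9 ± 3.99 TPM in the knockout and 103 ± 2.59 TPM in the wild type (SD, n = 4 each). Samhd1 came next, with 48.5 ± 1.09 and 59.3 ± 3.08 TPM, and then Mavs, with 40.3 ± 2.01 and 45.1 ± 1.55 TPM, in every library. The next 2 places were exchanged between the genotypes. In all 4 knockout libraries Ddx58 (19.5 to 23.0 TPM) was above Traf6 (10.1 to 12.4 TPM), and in all 4 wild-type libraries it was below (10.5 to 11.1 against 17.2 to 19.7 TPM). Tlr3 (2.60 ± 0.45 and 0.58 ± 0.11 TPM), Trex1 (2.45 ± 1.502 and 1.71 ± 1.03 TPM) and Dhx58 (1.499 ± 0.49 and 1.149 ± 0.32 TPM) followed. Their ranges overlapped in the knockout, so their order is not firm there, whereas in the wild type Tlr3 was below Dhx58 in each library. Ifih1 was at 1.04 ± 0.10 and 0.18 ± 0.04 TPM. Per length, RIG-I mRNA thus exceeded MDA5 mRNA in both genotypes, and Zbp1 was last.

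The table holds counts per annotated transcript. The 10 genes have 46 such transcripts, of which 22 could be tested. Of these, 4 rose and 2 fell (edgeR, adjusted p under 0.05 over 37987 transcripts, a threshold that 11.3% of all passed). For Tlr3, Traf6 and Ifih1, a single coding transcript held most counts: Tlr3-201 rose by 2.12 ± 0.22, Ifih1-201 by 2.08 ± 0.26 and Traf6-201 fell by 0.71 on the log2 scale. The only annotated transcript of Tmem173 was at -0.20 ± 0.06 and missed the threshold at this level (adjusted p = 0.0691).

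For Ddx58, the coding transcript Ddx58-201 (18 exons, 3874 bases) held 76.1% ± 8.87 of the counts in the knockout and 80.4% ± 5.38 in the wild type. A processed transcript without a coding sequence, Ddx58-205, held 20.4% ± 7.05 and 16.2% ± 4.87. Both rose, by 0.85 ± 0.13 (adjusted p = 0.00525) and 1.24 ± 0.32 (adjusted p = 0.0471), but the second was called no longer with any of the 8 libraries left out (adjusted p up to 0.16 over its alternatives, against 0.0444 for Ddx58-201). Of the retained intron forms of Ifih1, 1 had 4, 10, 12 and 15 counts in the knockout libraries, against 0 in every wild-type library. Another had 0, 0, 19 and 23 counts in the knockout libraries, against 0 in every wild-type library. Both were too sparse to be tested in the fit of all 8 libraries, and the whole gene had only 25 to 40 counts in a wild-type library.

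The split of Mavs counts was unlike the others in 1 library. The form Mavs-203 is annotated as a target of nonsense-mediated decay. It held 10.7%, 7.72%, 16.7% and 13.8% in the knockout, against 55.5%, 10.2%, 9.01% and 12.1% in the wild type. The coding form Mavs-202 was low in the same library, wild-type replicate 1, with 33.0% against 76.7% to 84.0% in the other wild-type libraries, while the sum over transcripts was 71.6 CPM there. With protein-coding transcripts alone summed, Mavs lost its call (log2 fold change -0.06, adjusted p = 0.822), and regained it when wild-type replicate 1 was also left out (-0.25, adjusted p = 0.00665; chosen after seeing the data). Trex1-201 and Trex1-202, which have the same coding length, split the counts unevenly within both groups. Samhd1-201 held 87.2% ± 3.98 and 90.3% ± 2.75 of its gene and fell by 0.42. In a test of each transcript's share within its gene, none of the 18 transcripts of these genes passed with edgeR (1 at an unadjusted p under 0.05) or with limma (2), against 0.171% of all transcripts with edgeR.

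**Figure D4:**
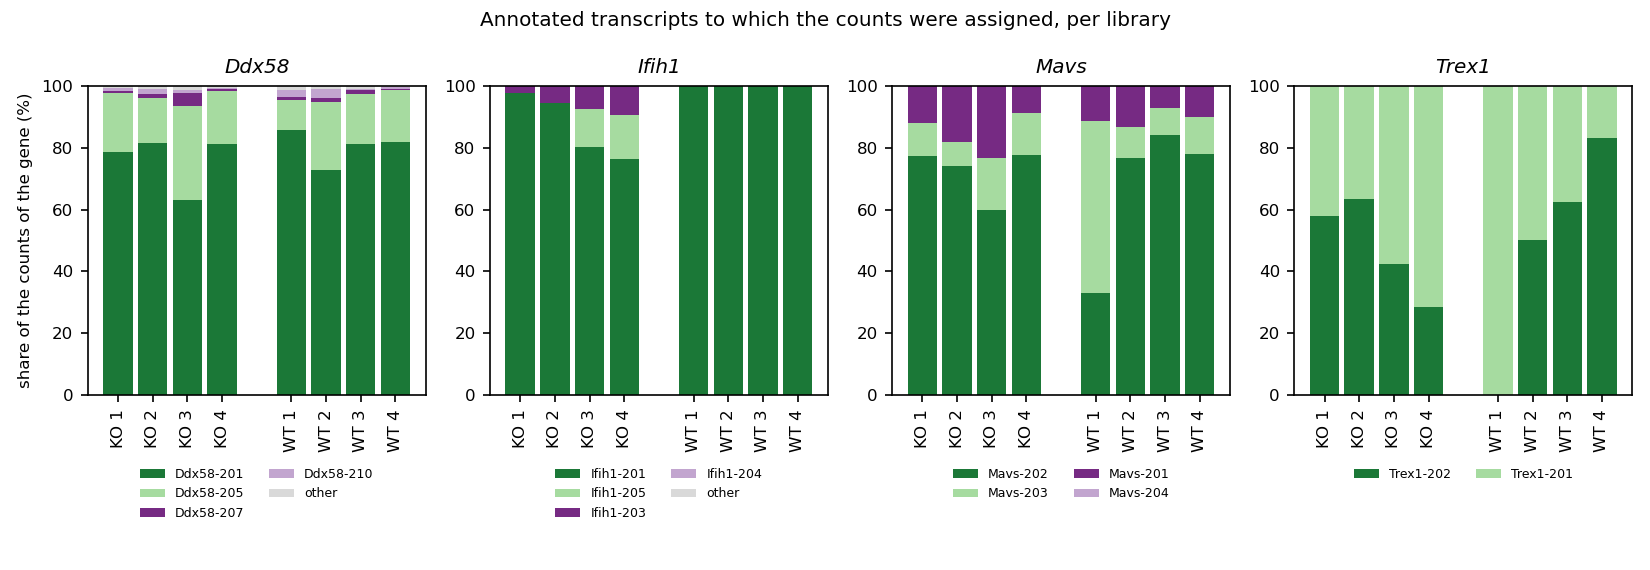
Share of the counts of a gene (y axis, %) assigned to each annotated transcript in the 4 G9a KO and 4 WT libraries (x axis) for Ddx58, Ifih1, Mavs and Trex1. Ddx58-201 dominates throughout; in WT 1 the share of Mavs-203 is 55.5%, above the 7.72% to 16.7% of the other libraries, and Trex1 is split unevenly within both groups.

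For the genes with the lowest p in each direction, those most like them over the 8 libraries were sought among all genes with at least 5 CPM, by the mean absolute difference of centred log2 CPM. For Ddx58 they were Ikbip (0.036), Sgcb (0.041) and Klhl5 (0.051), and for Traf6 they were Gzf1 (0.036), Cry1 (0.036) and Caprin1 (0.040). Gzf1 and Caprin1 also lie on chromosome 2. Sgcb and Klhl5 lie on chromosome 5, among neighbours raised by medians of 0.34 and 0.39. With the neighbour median taken out, Sgcb stood at 0.57, Klhl5 at 0.52 and Ikbip at 0.92, against 1.00 for Ddx58.

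Other genes of nucleic acid sensing, 159 in 8 lists, moved in both directions. There were 41 rises, 36 falls and 44 genes that did not pass among the 121 tested. That is 33.9% higher and 29.8% lower, 63.6% in all, against 23.6%, 23.6% and 47.2% of all genes tested. Those named below as having risen or fallen had adjusted p of at most 0.0298 (edgeR) unless another value is given, and their changes are on the log2 scale. With library sizes alone as the scaling, 49 rose and 24 fell. With upper quartile scaling, 48 rose and 27 fell. With a mean of at least 1 CPM required, 39 rose and 29 fell of 113 tested, against 3436 and 3345 of all 12067 genes. The gap to all genes was smaller under that filter, and falls were no commoner than over all genes. With the neighbour median taken out, 38 rose and 25 fell, where 24.8% and 18.3% of all genes did. The median log2 fold change was 0.02.

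**Figure D5:**
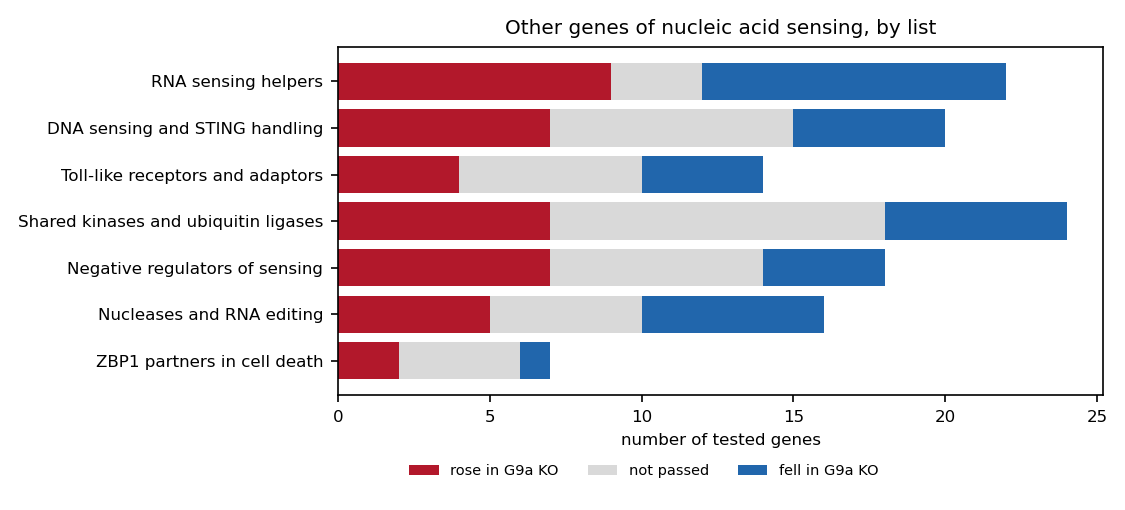
Number of tested genes (x axis) that rose, fell or did not pass in G9a KO against WT in each list of other sensing genes (y axis). Rises and falls occur in each of the 7 lists drawn, from 9 and 10 of 22 RNA sensing helpers to 2 and 1 of 7 ZBP1 partners. Over all genes tested, 23.6% rose and 23.6% fell.

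Among helpers of RNA sensing, 9 of 22 (40.9%) rose and 10 (45.5%) fell, against 23.6% of all genes in each direction. Of the oligoadenylate synthetase family, some members of which make the activator of RNase L, 6 of 7 tested genes rose and none fell, against 23.6% of all genes that rose. With the neighbour median taken out 4 of 7 rose. Oas3 (-0.05, adjusted p = 0.758, from 0.031) and Oas1c (0.82, adjusted p = 0.159, from 0.0443) lost their call. No fit with 1 library left out kept all 6 rises. The number was 4 of 7 without knockout replicate 4 or wild-type replicate 4, and 5 of 7 in each other such fit. With a mean of at least 1 CPM required, 3 were tested and 2 rose, and with no filter 5 of 8 rose. With protein-coding transcripts alone 4 of 6 rose, or 3 of 6 when wild-type replicate 1 was also left out. Oas1g had 12, 0, 5 and 0 counts in the wild type, against 58 to 98 in the knockout. For a gene that sparse in the wild type a fall could hardly have been seen. This subgroup was singled out after its values were seen, and its members are near copies whose reads may be shared. Oas1a had 2.37 ± 0.22 against 0.45 ± 0.16 CPM, a rise of 2.405 ± 0.27 (adjusted p = 6.79e-06), among neighbours raised by a median of 0.36. Rnf135, the ubiquitin ligase Riplet that activates RIG-I, rose by 0.88 ± 0.13 (adjusted p = 7.81e-05). The helicase genes Dhx9 (417.4 ± 14.5 against 572.7 ± 27.9 CPM) and Ddx21 (536.1 ± 9.85 against 655.5 ± 6.31 CPM) fell. Of 8 tested helicase genes of the RNA and DNA lists, grouped after their values were seen, 7 fell and Dhx15 rose, against 23.6% of all genes that fell. Dhx36 passed narrowly (edgeR, adjusted p = 0.0484), and its groups overlapped. The number that fell was 6 with RLE or upper quartile scaling, with the replicate block and in most fits with 1 library left out. With the neighbour median taken out 6 fell and none rose, against 18.3% of all genes that fell.

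On the DNA side, 7 of 20 genes (35%) rose and 5 (25%) fell, against 23.6% of all genes in each direction. Cgas itself, the enzyme that makes the STING ligand, was at 15.1 ± 0.92 against 14.1 ± 0.75 CPM and did not pass (adjusted p = 0.294; named after its values were seen). Ifi204, a DNA-binding protein of the AIM2-like family, rose by 1.13 ± 0.08, and Trim56, a ubiquitin ligase of cGAS and STING, by 0.81 ± 0.06 (0.48 with the neighbour median taken out). Zcchc3, a co-sensor of cGAS on chromosome 2, fell to 36.7 ± 0.88 CPM, against 80.5 ± 2.82 CPM in the wild type. It remained lower with the neighbour median taken out (-0.57, adjusted p = 8.22e-07). Slc19a1, the folate carrier that can import cyclic dinucleotides in human cells, fell by 0.44.

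Of the other Toll-like receptors and their adaptors, 14 of 25 could be tested. Among these 4 rose and 4 fell, 28.6% each way, near the 23.6% of all genes. Tlr2, the receptor of bacterial lipopeptides, rose to 9.22 ± 0.58 CPM, against 3.57 ± 0.48 CPM in the wild type. Cnpy3, a chaperone of Toll-like receptors, rose by 0.62 ± 0.07, the kinase gene Irak4 rose by 0.46 ± 0.08, and the inhibitor gene Tollip fell by 0.26. Ticam1, which encodes TRIF, the adaptor of TLR3, was at 18.9 ± 0.87 against 21.5 ± 3.16 CPM and did not pass (adjusted p = 0.134; named after its values were seen).

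Shared kinases and ubiquitin ligases rose in 7 of 24 cases (29.2%) and fell in 6 (25%), near the 23.6% of all genes in each direction. Ikbkb, the catalytic IKK subunit, rose by 0.64 ± 0.05 (0.41 with the neighbour median taken out) and the ubiquitin ligase gene Birc3 by 0.50 ± 0.09. Ube2v1, partner of the ubiquitin-conjugating enzyme that works with TRAF6, fell by 0.57, and Tank, a scaffold of TBK1, by 0.52. Both lie on chromosome 2 and stood at 0.03 with the neighbour median taken out. The downstream factor gene Irf3 was at 39.8 ± 2.21 against 48.2 ± 4.88 CPM (fell, adjusted p = 0.00655) and Irf7 at 0.82 ± 0.08 against 0.33 ± 0.22 CPM (rose, adjusted p = 0.0171). Both were named after their values were seen.

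Negative regulators rose in 7 of 18 cases (38.9%) and fell in 4 (22.2%), against 23.6% of all genes in each direction. Tnfaip3, which encodes the deubiquitinase A20, was at 5.87 ± 0.23 against 2.66 ± 0.24 CPM, a rise of 1.146, which was 2.02 with protein-coding transcripts alone and 2.68 when wild-type replicate 1 was also left out. Tnip1, its partner, rose by 0.49 ± 0.07. Ndfip1 rose by 0.36 ± 0.05. Itch, a ligase that marks MAVS for degradation, fell by 0.63 but lies on chromosome 2 and lost its call with the neighbour median taken out (-0.08, adjusted p = 0.274).

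Nucleases and RNA editing enzymes rose in 5 of 16 cases (31.2%) and fell in 6 (37.5%), against 23.6% of all genes in each direction. The exonuclease gene Isg20 rose, at 40.3 ± 5.74 against 19.98 ± 2.93 CPM. Adarb1, an adenosine deaminase acting on RNA, rose by 0.74 ± 0.07 and Pld3, a lysosomal exonuclease, by 0.65 ± 0.08. Rnaseh2a, the catalytic subunit of RNase H2, fell by 0.48. Of 7 partners of ZBP1 in cell death, Cflar rose by 0.43 ± 0.07 and Casp8 by 0.21 ± 0.06 (0.36 with the neighbour median taken out). Casp6 fell by 0.26 but lost its call in 8 of 19 alternatives (adjusted p up to 0.118), and Mlkl, the executor of necroptosis, was at 86.8 ± 2.60 against 91.8 ± 4.08 CPM (not passed).

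No interferon ligand gene could be tested. Of 20 listed, 16 had 0 counts in all libraries. Ifnb1 had 2 counts in 1 knockout library and 0 in the other 7 libraries, and Ifna13 had at most 16 counts in any library. Ifne had 3 counts in 1 knockout library, and Ifnk had 0 counts in the knockout, against 7, 5, 9 and 0 counts in the wild type. Levels of up to 0.04 to 0.0515 CPM per library would go unseen at this depth.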

How the data were processed

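RNA of 8 libraries, 4 G9a knockout and 4 wild type, was measured by poly-A sequencing. The deposited table holds whole-number estimated counts per Ensembl transcript, not normalized, with library names per the file headers. FastQC, Trimmomatic, HISAT2 and the build GRCm38.p6 are listed, per the submitters' processing notes. How reads were counted, and whether by strand, is not given in the sources used here. Transcripts were matched to GENCODE M21 (GRCm38), which held 114332 of 115220 (99.23%). The rest held at most 0.17% of the counts of a library and was left out. Counts were whole, needed no rounding, and were summed per gene.

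Genotypes were compared with edgeR 4.0.16 in R 4.3.3 (TMM, filterByExpr, quasi-likelihood F test, two-sided, genotype as the only term, adjusted over all genes). The SE was obtained from the fold change and F. Transcripts were fitted in the same way, and shares within genes were tested with diffSpliceDGE and with limma 3.58.1. Within groups no library pair was alike to within counting noise (smallest chi-square over degrees of freedom 10.8), and each library was 1 replicate. Alternatives left out each library, blocked by replicate number, took out the neighbour median, kept protein-coding transcripts alone, changed the scaling (library sizes alone, RLE, upper quartile) or the filter (none, mean of at least 1 CPM), or used limma-voom or DESeq2 1.42.0. The code was tested on simulated data.

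The genes and lists were chosen with earlier results of these data known. Named beside the 10 genes were up to 4 genes of each list with the lowest p, the nearest tested gene on either side with at least 1 CPM, transcripts with at least 10% of a gene's counts, and the 3 most alike genes of the rise and of the fall with the lowest p; others are marked. Promoter windows were those of RefSeq (GRCm38.p6), found for 7 of the 10 genes. Floors (3 counts for a count of 0) cover counting error only.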

Additional observations from a re-analysis of the deposited data

Results flagged for a closer look

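In a check of 48 groups of 4 libraries, 3 held a library far from the others by Dixon's test, which flags about 1 in 20 groups by chance. Dhx58 stood at 1.79 CPM in knockout replicate 4, against 1.01 to 1.11 CPM in the other knockout libraries. Mavs-202 stood at 23.3 CPM in wild-type replicate 1, against 53.2 to 57.5 CPM in the other wild-type libraries. Mavs-203 stood at 39.2 CPM in the same library, against 6.18 to 8.29 CPM in the others. The Mavs values are 2 parts of 1 gene sum, which was 71.6 CPM in that library and 68.8 to 69.9 CPM in the other wild-type libraries.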

How the results depend on the processing

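The 9 tested genes were refitted under 19 alternatives, of which 1 was chosen after seeing the data. Of 171 values, 167 kept direction and call. Mavs and Samhd1 reversed with the local shift taken out (0.30 and 0.22), Mavs lost its call with protein-coding transcripts alone (-0.06), and Trex1, never called, turned to -0.0458 without knockout replicate 2, with values up to 0.7526 when another library was left out. The cause of these changes was not tested. The number of called genes was between 6 and 8 of the 10, where 8 came from no filter, which called Zbp1. It was 7 whichever library was left out, and 7 with the replicate block, which changed no call of these genes. Same-numbered libraries deviated from their group means with correlations of -0.28, 0.08, 0.38 and 0.13, so the numbers were not taken as pairs. Of the other sensing genes 77 were called, 78 with the replicate block, 63 with the local shift taken out, and between 66 and 77 with 1 library left out. Of the transcripts 6 were called, 5 with the replicate block and between 5 and 6 with 1 library left out, of which 5 were shared each time: Ddx58-205 was lost in all 8 such fits, and in 7 of them another transcript was called instead, in 5 a retained intron form of Ifih1. Among named list genes, Ube2v1, Tank and Itch lost their call with the local shift taken out, and Casp6 in 8 settings (adjusted p up to 0.118). Over all genes, library sizes alone gave 4543 higher and 2742 lower, against 3742 and 3734. Mavs and Tmem173 fell by less under that scaling, at -0.16 and -0.15 (edgeR, adjusted p = 0.0153 and 0.0234). They were at -0.24 and -0.23 in the main fit, and both at -0.18 with upper quartile scaling. Depth limits Ifih1, Dhx58, Trex1 and Zbp1, whose counts per library were at most 184, 128, 162 and 16.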
